A study of Rattus norvegicus with 32 samples.

Results

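Neuronal intermediate filaments were followed through 5 genes, Nefl, Nefm, Nefh, Ina and Prph, which were chosen by gene symbol among the 17216 gene rows of the count tables. All 5 were present. The libraries came from 16 single hippocampal neurons of wildtype Sprague Dawley rats, labelled pyramidal, taken at embryonic day 18 and kept in culture for 15 days. From each neuron the soma and the dendrites were drawn into separate pipettes, giving 16 soma and 16 dendrite libraries of polyadenylated RNA after 3 rounds of linear amplification by in vitro transcription. The groups shared strain, genotype and culture protocol, carried no treatment in their labels, and differed in the part of the cell that was sampled.

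Neurofilaments are the intermediate filaments of neurons, rope-like polymers that lie along axons and, more sparsely, in cell bodies and dendrites. The light chain (Nefl), the medium chain (Nefm) and the heavy chain (Nefh) assemble together, and alpha-internexin (Ina) joins them as a further subunit of central neurons. Ina is known to appear early in neuronal development, Nefl and Nefm follow as axons grow, and Nefh comes last, in large myelinated axons. Peripherin (Prph) is a related subunit best known from peripheral and spinal neurons. Neurofilament proteins are long-lived, so an mRNA level is not a protein level.

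Of the 5 members, the RefSeq promoter table held Ina and Prph. Ina had 10 or more counts in every library and Prph in 9 of 16 of each compartment. The 250 bases before the start site that the table uses for each are shown. For Ina that site is the first base of the annotated gene. For Prph the annotated gene of the same build begins further upstream, so the window lies inside the gene and another start is annotated before it. They are the RefSeq entries of build GRCr8, plus strand, chr1:255837879-255838128 for Ina and chr7:132097039-132097288 for Prph, and the table matched 2 of the 5 members. Capitals mark matches, on either strand, to TATAAA (the TATA box), GGGCGG (the GC box, CCGCCC on the other strand) or CAGCTG (an E-box, the same on both strands).
Ina: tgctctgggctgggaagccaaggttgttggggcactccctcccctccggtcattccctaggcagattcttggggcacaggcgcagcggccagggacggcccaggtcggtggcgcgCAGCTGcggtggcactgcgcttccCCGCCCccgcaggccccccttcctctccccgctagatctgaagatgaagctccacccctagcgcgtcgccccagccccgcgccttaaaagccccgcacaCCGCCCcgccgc
Prph: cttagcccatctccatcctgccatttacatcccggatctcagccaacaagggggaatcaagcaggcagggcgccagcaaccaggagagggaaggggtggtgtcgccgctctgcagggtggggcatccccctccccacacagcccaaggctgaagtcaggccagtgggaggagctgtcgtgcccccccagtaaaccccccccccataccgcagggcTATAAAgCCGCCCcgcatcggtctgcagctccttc
The Prph window held 1 TATAAA, with its first base 35 bases before the start site that the table uses, and 1 GC box that begins directly after the base following it. The Ina window held 2 GC boxes and 1 CAGCTG, and no TATAAA. Among all 33469 RefSeq windows of the same length, 12.9% held TATAAA, 30.5% the GC box and 11.97% CAGCTG. Matches describe the letters of the windows alone.

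Soma libraries held between 878125 and 24721811 gene counts, with a median of 15629500, and dendrite libraries between 229149 and 24439768, with a median of 8842539. Levels are given in CPM, each count scaled to a library total of 1000000 gene counts, which is a share of the library and not an amount of RNA per cell. Of 8 general neuron markers, 7 had 10 or more counts in at least 8 libraries of either compartment. So did 5 of 10 pyramidal markers in soma and 6 in dendrites. Of 12 inhibitory markers, 1 in soma and 3 in dendrites did, and of 11 astrocyte markers 3 in soma and 5 in dendrites. Summed inhibitory neuron markers (12 genes, Dlx2 at 0 in all) ran from 0 to 16655 CPM in soma and from 10.9 to 3304 CPM in dendrites. Neuron 8, labelled pyramidal like the others, held the highest inhibitory sum of any soma, 16655 CPM, and the lowest pyramidal sum of any soma, 308 CPM. Astrocyte markers (11 genes) summed to between 0.324 and 595 CPM in soma and to between 40.2 and 2295 CPM in dendrites, and microglia markers (10 genes, Aif1, Cx3cr1, C1qa, C1qb, C1qc and Tmem119 at 0 in all libraries) to at most 0.126 CPM in soma and 19.5 CPM in dendrites. Over whole profiles, the soma of neuron 7 resembled the dendrites of neuron 9 most and the soma of neuron 9 the dendrites of neuron 7, with Spearman correlations of centred profiles of 0.26 and 0.17 against 0.091 and 0.070 within neurons 7 and 9. Fold changes, subunit ratios, the correlation of Nefl with Nefm and those between compartments are therefore also given without neurons 7, 8 and 9, and likewise without neurons 20 and 25. Neuron 25 was the shallowest pair, and the dendrites of neuron 20 held the highest share of spike-in RNA, 4.33%. The somata of neurons 8, 11, 14, 18, 20, 22 and 28 did not resemble their own dendrites most either. That of neuron 8 resembled the dendrites of neuron 9 most, and the correlation within neuron 11 was -0.054. The pairs were used as labelled, and differences within these neurons depend on the labels.

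Nefl mRNA was found in nearly every soma and dendrite library, but at levels that ranged over more than 3 orders of magnitude between neurons. In soma its lowest value was 0.486 CPM, its median 406 CPM and its highest 2231 CPM, with a mean of 569 ± 633 CPM (SD, n = 16). In dendrites the lowest value was 1.14 CPM, the median 275 CPM and the highest 3077 CPM, with a mean of 612 ± 843 CPM (SD, n = 16). The ranges of the compartments overlapped almost completely. The highest soma was that of neuron 23, and the dendrites of the same neuron held the lowest dendritic value, 8 counts among 7005768. The lowest somata were those of neurons 20 and 22, with 3 and 21 counts. The 3 highest libraries held 55.4% of the summed Nefl CPM in soma and 63.1% in dendrites.

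Nefm followed the same course. Its lowest, median and highest values were 0.400, 483 and 4484 CPM in soma (mean 1092 ± 1407, SD, n = 16). In dendrites they were 3.03, 488 and 4666 CPM (mean 898 ± 1270, SD, n = 16). The medians of the compartments were thus close, and the ranges overlapped almost completely. Neuron 7 had 6 Nefm counts in its soma and 5449 in its dendrites, and neuron 11 had 41 and 20639. Neuron 25 went the other way, with 680 CPM of Nefm in its soma and 3 counts, or 13.1 CPM, in its dendrites. Summed over the 5 genes, filament levels ran from 510 to 6095 CPM in soma (median 1456) and from 182 to 7563 CPM in dendrites (median 1538).

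Ina, alpha-internexin, was the member found everywhere: it had 10 or more counts in 16 of 16 soma and 16 of 16 dendrite libraries. In soma its lowest, median and highest values were 8.18, 850 and 1628 CPM, with a mean of 774 ± 511 CPM (SD, n = 16). In dendrites they were 34.8, 435 and 1564 CPM, with a mean of 601 ± 495 CPM (SD, n = 16). A single soma, that of neuron 21, lay far below the rest, since the next lowest soma, that of neuron 15, held 232 CPM. The dendrites of neuron 21 held 248 CPM.

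Nefh, the heavy chain, was not found in most libraries. Of the somata, 13 had 0 counts, neuron 9 had 1, and only neuron 8 (1506 counts, 111 CPM) and neuron 13 (685 counts, 33.2 CPM) had 10 or more. Of the dendrites, 8 had 0 counts and 4 had 10 or more: neuron 7 with 163 CPM, neuron 18 with 145 CPM, neuron 9 with 3.08 CPM and neuron 8 with 2.89 CPM. Neuron 8 alone had 10 or more counts in both libraries, and 11 of 16 neurons had them in neither. A count of 0 allowed up to between 0.121 and 3.42 CPM in these somata, and up to between 0.156 and 13.1 CPM in these dendrites (3 counts of the library, counting error only). In the 2 libraries above 100 CPM among dendrites, inhibitory markers summed to 3304 CPM (neuron 7) and 1306 CPM (neuron 18), and in the highest soma, that of neuron 8, to 16655 CPM. In the soma of neuron 13 the sum was 157 CPM, beside a soma median of 156 CPM, and in the dendrites of neuron 9 it was 88.2 CPM. High sums also occurred without Nefh: the soma of neuron 9 summed to 2239 CPM with 1 Nefh count, and the dendrites of neuron 15 to 1712 CPM with 0. The part of inhibitory identity in the Nefh counts was not tested. Nefh did not pass the filter on low counts and has no test.

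Prph was present or missing by library. It had 10 or more counts in 9 of 16 somata and 9 of 16 dendrites, which belonged to the same neuron in 6 cases. In 3 neurons (11, 14 and 22) it reached that count in soma alone, in 3 (18, 20 and 25) in dendrites alone, and in 4 in neither. It had 0 counts in 7 somata and 2 dendrite libraries. A count of 0 allowed a level of up to 0.150 CPM in the deepest of these somata, that of neuron 18, and of up to 3.42 CPM in the shallowest, that of neuron 25. The highest soma was neuron 9 with 266 CPM and the highest dendrites were those of neuron 13 with 160 CPM, against medians of 2.40 and 4.62 CPM. Neuron 11 held 2155 Prph counts in its soma and 0 among 21226819 gene counts in its dendrites. Prph in soma moved with depth and with other markers. Its Spearman correlation over the 16 somata was 0.53 with gene counts, 0.67 with summed astrocyte markers and -0.67 with summed pyramidal markers. Over the 16 dendrite libraries these were weaker, at 0.19, 0.28 and -0.43. The part of depth and of these markers in the Prph level was not tested.

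**Figure D1:**
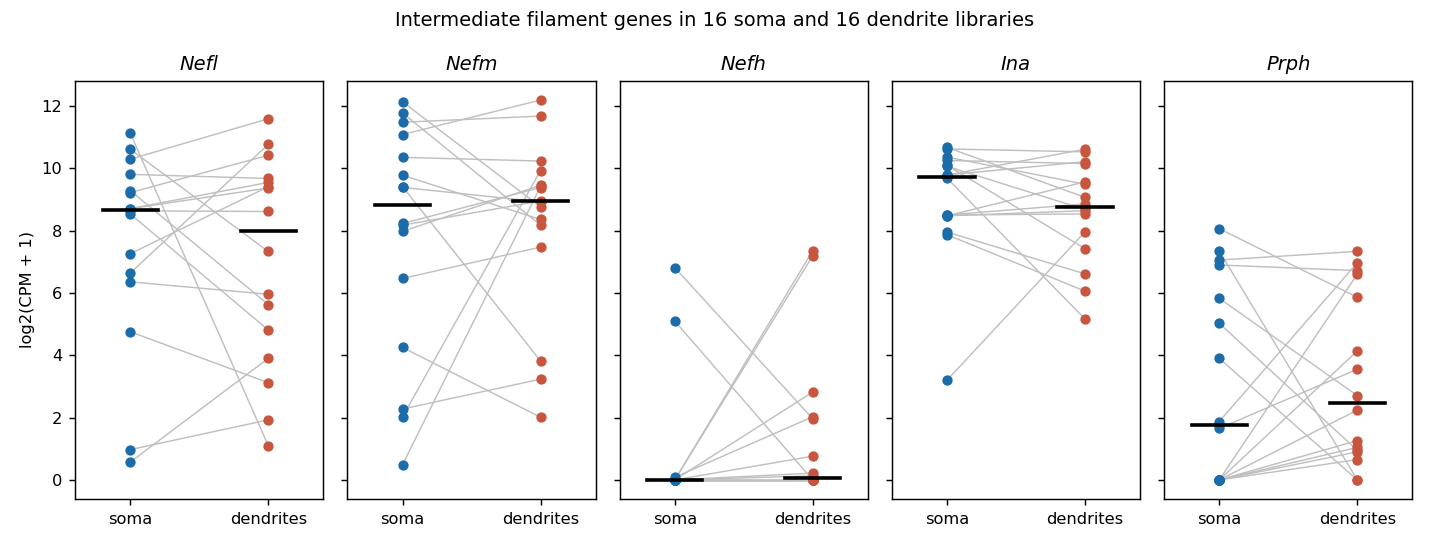
Levels of the 5 genes as log2(CPM + 1) on the vertical axis in 16 soma (blue) and 16 dendrite (red) libraries; grey lines join libraries of 1 neuron and black bars are medians. Ina was lowest in the soma of neuron 21 (8.18 CPM), Nefl and Nefm spread from below 1 CPM to 3077 and 4666 CPM, and Nefh is at 0 in 13 somata and 8 dendrite libraries.

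At 1 common depth of 1071293 gene counts per library, in the 15 neurons with both libraries that deep, fewer libraries reached 10 counts. Ina kept 10 or more counts in both libraries of 14 neurons, and Nefl and Nefm in both of 11 neurons each. Nefh had them in both libraries of 0 neurons and in a single library of 4. Prph had them in both of 3 neurons, in a single library of 6 and in neither of 6.

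The comparison of dendrites with the soma of the same neuron asked whether filament mRNAs differed in relative abundance between compartments. None of the 4 tested members passed edgeR's quasi-likelihood test at an adjusted p of 0.05, and neither did any other gene: 0% of the 4916 tested genes were called. At an unadjusted p of 0.05 the background was 2.62% of tested genes, and 0 of 4 members were under it. DESeq2's Wald test called 8.2% of the tested genes and 0 of 4 members. Ina had a log2 fold change, dendrites over soma, of -0.46 ± 0.50 (SE, 16 neurons), was lower in dendrites in 9 of 16 neurons, and was negative in all 26 alternatives run. Nefl stood at -0.08 ± 0.91, higher in dendrites in 8 neurons and lower in 8. Nefm stood at 0.18 ± 0.89, higher in 9. Prph stood at 2.35 ± 2.07, higher in 11, although its mean CPM was higher in soma (49.0 ± 79.2, against 36.4 ± 53.9 in dendrites, SD, n = 16). Each member had an adjusted p of 0.999, beside a median log2 fold change of 0.13 over all tested genes. In 4 of the 11 neurons counted as higher for Prph (21, 23, 26 and 28), 0 soma counts stood against 3, 4, 1 and 2 dendrite counts, so their direction came from the floor and the prior count. Without neurons 7, 8 and 9 the fold changes were -0.24 for Nefl, -0.39 for Nefm, -0.62 for Ina and 2.63 for Prph. Without neurons 20 and 25 they were -0.40, 0.20, -0.40 and 1.18. Without the neuron as a block, that of Prph was -0.38.

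Differences within single neurons were large in both directions. The log2 difference, dendrites minus soma, exceeded 2 (a 4-fold change) in either direction in 7 of 16 neurons for Nefl, in 7 for Nefm and in 3 for Ina. Nefl ran from -10.69 in neuron 23 to 6.73 in neuron 20. Nefm ran from -5.64 in neuron 25 to 9.76 in neuron 7. Ina ran from -2.91 in neuron 22 to 4.31 in neuron 21. Neurons 7, 20 and 22 were among those whose soma did not resemble its own dendrites most over whole profiles. The SD of these differences was 3.95 for Nefl and 4.03 for Nefm, where the median gene had 4.42. For Ina it was 1.73, and 5.45% of the tested genes had a smaller one.

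**Figure D2:**
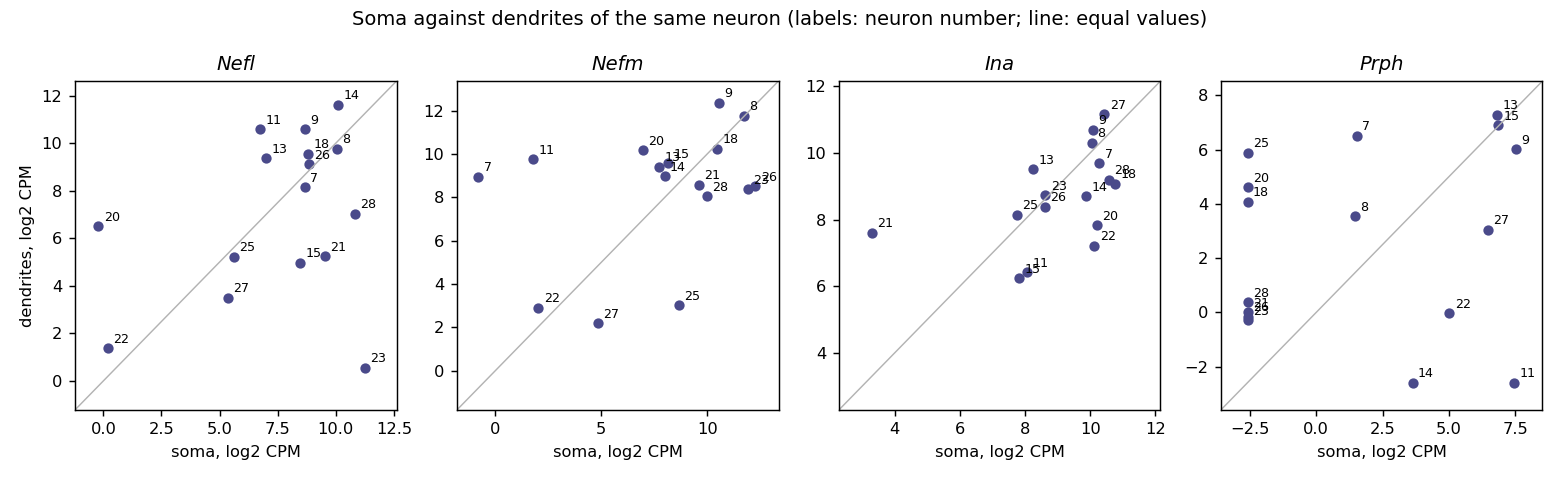
Each point is 1 neuron, with log2 CPM (TMM-scaled, prior count 2) of its soma on the horizontal and of its dendrites on the vertical axis, each panel on its own scale; the grey line marks equal values. Examples far from it are Ina of neurons 21 (4.31) and 22 (-2.91), Nefl of neurons 20 (6.73) and 23 (-10.69) and Nefm of neuron 7 (9.76), given as dendrites minus soma.

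Subunit ratios, which need no scaling between libraries, were also compared. In the 11 neurons with 10 or more counts of both genes in both libraries, the log2 count ratio of Nefm to Nefl was 0.06 ± 2.28 in soma and 0.73 ± 2.12 in dendrites (SD). The paired difference was 0.67 ± 2.63 (exact two-sided sign-flip permutation p = 0.427, 0.798 adjusted over 3 ratios), with higher values in dendrites in 5 of 11 neurons. The ratio of Ina to Nefl differed by 0.25 ± 3.38 over 13 neurons (exact permutation p = 0.798, adjusted 0.798), and that of Ina to Nefm by -0.52 ± 4.13 over 13 neurons (exact permutation p = 0.671, adjusted 0.798). Without neurons 7, 8 and 9 the 3 differences were 0.79, 0.41 and -0.52, and without neurons 20 and 25 they were 0.67, 0.21 and -0.094. No shift of subunit makeup between compartments was detectable against this spread. Between neurons the range was wide: among somata the Nefm to Nefl ratio ran from -5.01 in neuron 11 to 3.43 in neuron 26, and among dendrites from -2.64 in neuron 14 to 4.62 in neuron 15. In neuron 9 the ratios were close, 1.86 in soma and 1.77 in dendrites. Its soma resembled the dendrites of neuron 7 most over whole profiles, so this likeness depends on the labels.

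The spread between neurons was set beside that of all tested genes and of those with a higher mean. The SD falls as the mean rises, so the second comparison favours a large SD in the member, and genes of like mean were not compared. The SD of log2 CPM over the 16 somata was 3.90 for Nefm, and of the 489 tested genes with a higher mean, 1 had a larger SD. For Nefl in soma it was 3.38, exceeded by 11 of the 557 genes with a higher mean. Against all tested genes, these SDs did not stand out: 72.4% had a smaller SD than Nefm and 46.5% a smaller one than Nefl in soma. In dendrites the SD was 3.01 for Nefm (14 of 340 genes with a higher mean exceeded it) and 3.35 for Nefl (18 of 709). Ina had an SD of 1.87 in soma and 1.42 in dendrites, beside medians of 3.46 and 3.22 over all tested genes. Of the genes with a higher mean than Ina, 13 of 179 had a larger SD in soma and 102 of 252 in dendrites. Prph, at 4.36, had a larger SD in soma than 90.1% of the tested genes. Of the 3725 genes with a higher mean, 398 exceeded it. The 7 somata with 0 Prph counts all stood at the floor set by the prior count. In dendrites its SD was 3.40, larger than that of 59.1% of the tested genes. There 1005 of the 3157 genes with a higher mean exceeded it.

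**Figure D3:**
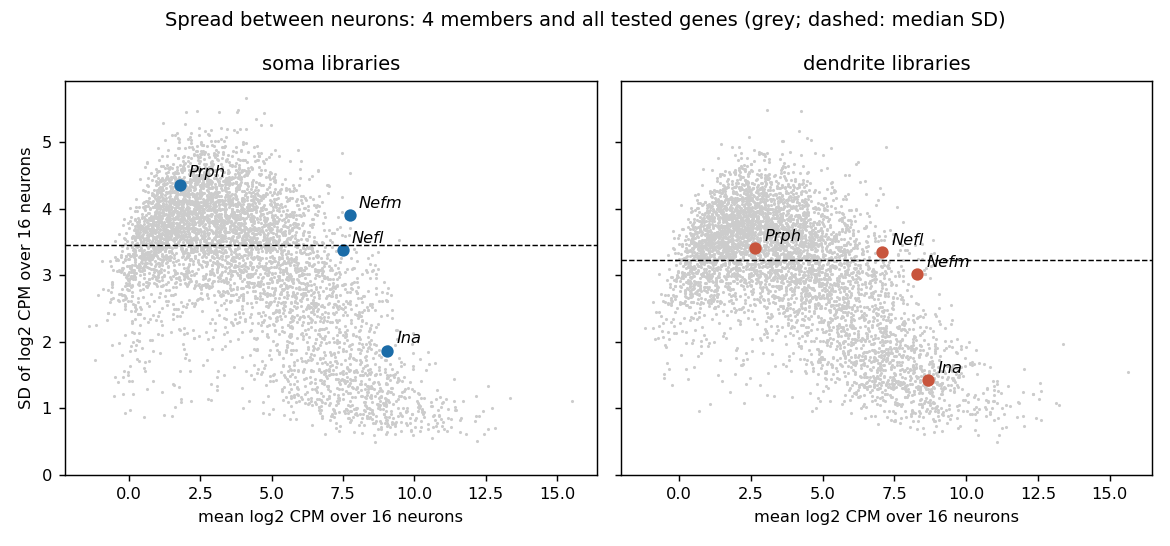
Mean (horizontal) and SD (vertical) of log2 CPM over 16 neurons for each of 4916 tested genes (grey) and 4 members (coloured), in soma and in dendrites; the dashed line is the median SD. The SD falls as the mean rises. In soma, Nefm (3.90) and Nefl (3.38) lie above Ina (1.87) on the vertical axis and Prph (4.36) above all 3.

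Nefl and Nefm varied together from neuron to neuron. Their levels had a Spearman correlation of 0.68 across the 16 somata and of 0.69 across the 16 dendrite libraries (Pearson's r 0.49 and 0.65, and 0.48 and 0.67 without the 2 neurons farthest from the median Nefl level). The median over all 12081070 pairs of tested genes was 0.044 in soma and 0.056 in dendrites, and 5% of pairs lay above 0.49 in soma and 0.50 in dendrites. Nefl ranked 3 among all genes in likeness to Nefm in soma and 30 in dendrites, and Nefm ranked 11 and 71 in likeness to Nefl. Both genes of a pair come from 1 library and share its depth and amplification. In dendrites, the number of genes with 10 counts had a correlation of 0.60 with Nefl and 0.80 with Nefm, and the spike-in share of -0.60 and -0.68. In soma these were 0.15 and 0.015, and -0.185 and -0.185. At a fixed number of detected genes, the rank correlation of Nefl and Nefm was 0.68 in soma and 0.57 in dendrites. The plain Spearman correlation, without that adjustment, was 0.73 and 0.61 without neurons 7, 8 and 9, and 0.69 and 0.74 without neurons 20 and 25. In the RefSeq annotation of GRCr8, Nefl and Nefm are neighbours on 1 chromosome with 0 protein-coding genes between them.

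Neurons 22 and 27 were low for both chains in both parts of the cell. Neuron 22 held 0.961 CPM of Nefl and 3.84 CPM of Nefm in soma, and 2.80 and 8.40 CPM in dendrites. Neuron 27 held 432 counts of Nefl and 300 of Nefm in soma, among 16627925, and 7.69 and 3.03 CPM in dendrites. Ina was not low in their somata, with 1094 CPM in neuron 22 and 879 CPM in neuron 27. The dendrites of neuron 27 held 1564 CPM of Ina, the highest of all dendrites. Those of neuron 22 held 170 CPM, below the dendrite median of 435 CPM. Neurons 8 and 9 were high for Nefm in both parts, at 2846 and 2164 CPM in soma and 3264 and 4666 CPM in dendrites. The somata of neurons 23 and 26 held more, 3503 and 4484 CPM, but their dendrites 287 and 433 CPM. Nefl in neurons 8 and 9 was at 892 and 595 CPM in soma and 815 and 1364 CPM in dendrites, below the highest of either compartment. The somata of neurons 8, 9 and 22 did not resemble their own dendrites most over whole profiles. The soma of neuron 7 broke the pattern, with 396 CPM of Nefl and 0.400 CPM of Nefm. Nefm also moved with the inhibitory marker sum, with a Spearman correlation of 0.54 in soma and 0.55 in dendrites. For Nefl these were 0.24 and 0.23. Of the 12 genes in that sum, 1 in soma and 3 in dendrites had 10 or more counts in at least 8 libraries. The part of inhibitory identity in the Nefm level was not tested. Some other marker sums went the opposite way. The endothelial, mural and fibroblast sum had a correlation of -0.49 with Nefl and -0.46 with Nefm in dendrites. In soma these were -0.23 and -0.20. The oligodendrocyte sum had -0.51 and -0.63 in soma, but 0.12 and 0.056 in dendrites. The general neuron marker sum had -0.46 and -0.51 in dendrites, and 0.0059 and 0.19 in soma. Of the 7 oligodendrocyte genes, 1 in soma and 0 in dendrites had 10 or more counts in at least 8 libraries. Their sum had a median of 2.33 CPM in soma and 3.27 CPM in dendrites. Of the 11 endothelial, mural and fibroblast genes, 2 in soma and 2 in dendrites reached that count in at least 8 libraries. The endothelial, mural and fibroblast sum was highest among dendrites in neuron 22, at 795 CPM. In neuron 27 it was 307 CPM in soma and 248 CPM in dendrites. Neuron 9, high for Nefm, held the highest soma sum, 600 CPM, and the soma of neuron 22 held 19.7 CPM. The dendrites of neurons 7 and 23 held 445 and 499 CPM, with Nefl at 390 and 1.14 CPM and Nefm at 682 and 287 CPM. The part of these sums in the low levels was not tested either.

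**Figure D4:**
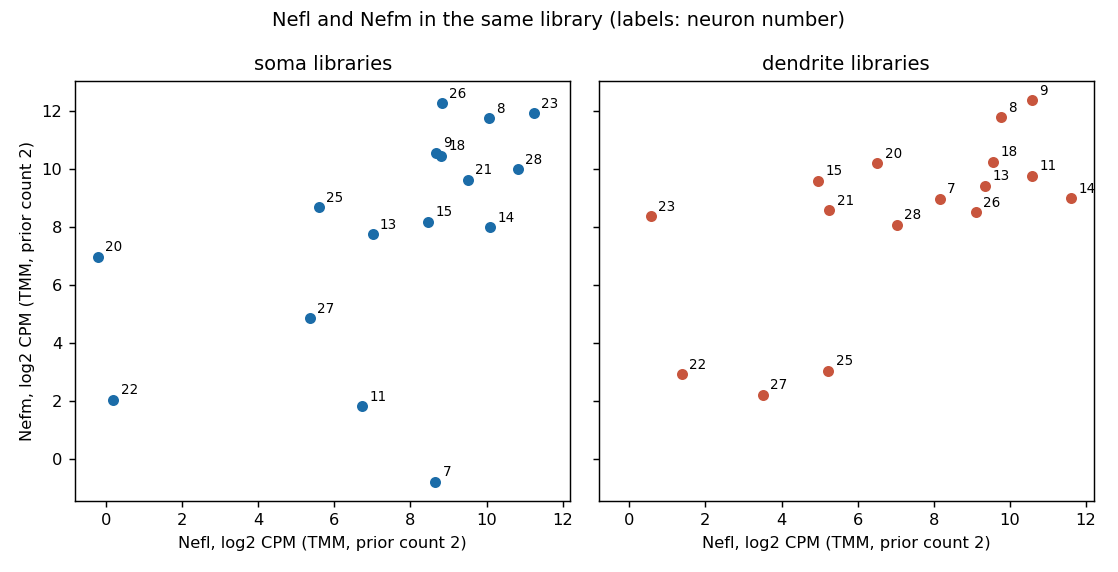
Log2 CPM (TMM-scaled, prior count 2) of Nefl on the horizontal and of Nefm on the vertical axis, with 1 point per library, labelled by neuron number, in soma (left) and dendrites (right). Most points rise together (Spearman 0.68 and 0.69), and neurons 22 and 27 lie low for both genes in both panels. Points off the trend include the somata of neurons 7, 11 and 20 and the dendrites of neurons 15 and 23.

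Correlations of the other members were weaker. That of Ina with Nefl was -0.0088 in soma and 0.23 in dendrites, and with Nefm -0.10 and 0.085. Prph had -0.34 with Nefl and -0.44 with Nefm in soma, and -0.068 and 0.30 in dendrites. Ina and Prph had -0.11 in soma and 0.27 in dendrites.

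The level of Ina in the dendrites went with that in the soma of the same neuron. Over 16 neurons its Spearman correlation between the compartments was 0.55 (Pearson's r 0.47, and 0.56 without the 2 neurons farthest from the median soma level), and 96.3% of the tested genes had a lower one. The same correlation was 0.24 for Nefl, 0.18 for Nefm and 0.22 for Prph, where the median tested gene had 0.082. Of the 4916 tested genes, 179 had a higher mean than Ina in soma and 252 in dendrites. Genes of like mean were not compared here either. Pearson's r was 0.31 for Nefl, 0.34 for Nefm and 0.15 for Prph, and without the 2 farthest neurons 0.0063, 0.65 and 0.27, so that of Nefl rested on the neurons left out. Without neurons 7, 8 and 9 Spearman's correlation was 0.55 for Ina, 0.18 for Nefl, 0 for Nefm and 0.054 for Prph. Without neurons 20 and 25 it was 0.59 for Ina, 0.11 for Nefl, 0.18 for Nefm and 0.29 for Prph. At the common depth that of Ina was 0.59.

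The genes most like each member were named by the highest Spearman correlation over 16 libraries. For Nefl in soma they were B3galnt1 (0.83), a glycosyltransferase gene, Senp6 (0.79), which encodes a SUMO protease, the potassium channel gene Kcnh1 (0.76), RGD1562987 (0.75) and the ubiquitin-conjugating enzyme gene Ube2b (0.71). For Nefm in soma they were Gabbr2 (0.82), a subunit of the GABA-B receptor, the immediate early gene Nr4a1 (0.70), Nefl itself (0.68), Tceb1 (0.67), which encodes elongin C, and Akr7a2 (0.66), an aldo-keto reductase gene. For Ina in soma they were Nme3 (0.90), a nucleoside diphosphate kinase gene, Slc15a3 (0.76), Rsrp1 (0.75), Actr1b (0.71), an actin-related subunit of dynactin, and Rit2 (0.71), a neuronal small GTPase gene. In dendrites, Nefl was most like Sumf1 (0.88), Ntrk3 (0.87), the receptor gene for neurotrophin 3, Crcp (0.87), Slc12a5 (0.87), the neuronal chloride exporter gene, and Ndufaf3 (0.86). Nefm was most like Gak (0.82), Psme1 (0.81), Tmod1 (0.81), Amigo2 (0.81) and Plekhb2 (0.80), and Ina most like LOC100911177 (0.79), Nap1l5 (0.77), Brcc3 (0.76), Cggbp1 (0.75) and Hivep1 (0.75). Apart from Nefl beside Nefm, 0 members were among each other's 5 most alike genes. Several of these genes had few counts, such as Kcnh1, Sumf1, Tmod1 and Hivep1, each with 10 or more counts in at most 8 of the 16 libraries.

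Genes that act on neurofilaments showed no called change either. Of the kinases and phosphatases that modify the chains, 0 of 12 tested passed, with 5 positive and 7 negative fold changes and a median of -0.16, beside the 0.13 over all tested genes. Cdk5, a kinase of the tails of Nefm and Nefh, stood at 1.73 ± 1.31 (SE) and Mapk8, which encodes the kinase JNK1, at -0.56 ± 0.50. Of motors and linkers, 0 of 7 tested passed (3 positive, 4 negative, median -0.33). Dync1i1, an intermediate chain of dynein, the motor that carries filaments back to the soma, was at -1.11 ± 0.45, with a median level of 2319 CPM for somata, 1095 CPM for dendrites, and lower values in dendrites in 11 of 16 neurons (edgeR p = 0.0201, adjusted p = 0.999). The kinesin gene Kif5b was at 2.24 ± 1.46 and Klc1, a kinesin light chain gene, at -0.38 ± 0.33.

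Of the turnover and chaperone genes, 0 of 6 tested passed (4 positive, 2 negative, median 0.055), with the ubiquitin ligase gene Stub1 at 0.95 ± 0.98 (SE) and the co-chaperone gene Dnajb6 at 0.87 ± 1.92. Of the RNA-binding proteins, several of which are known to bind neurofilament mRNAs, 0 of 10 tested passed (5 positive, 5 negative, median 0.035). Hnrnpa1 was at 1.29 ± 0.74, with the dendrites above the soma in 13 of 16 neurons. Hnrnpk was at -0.48 ± 0.58. Axonal and growth genes had 6 of 8 tested members positive, with a median of 0.30 and 0 calls. Among them Map1b, a microtubule protein of growing axons, was at 0.46 ± 0.26, Mapt, which encodes tau, at 0.40 ± 0.27 and Stmn2 at 0.26 ± 0.22. For each gene named here the edgeR adjusted p was 0.999.

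Most other filament genes were at or near 0. Of 18 other intermediate filament genes among the rows, 9 had 10 or more counts in any library and 3 in at least 8 libraries. Lmna, which encodes the nuclear lamins A and C, was the only one tested, at -2.80 ± 2.09 (SE, edgeR adjusted p = 0.999), with 10 or more counts in 13 somata and 7 dendrite libraries. Vim, the vimentin gene of glia, mesenchymal cells and young neurons, reached that count in 4 somata and 8 dendrite libraries, with highest values of 68.5 and 92.8 CPM. Iffo1, a filament-family gene, reached it in 7 and 5. Nes, the nestin gene of neural progenitors, reached it in 0 libraries, and the astrocyte gene Gfap in 2 somata and 5 dendrite libraries, with a highest value of 123.5 CPM in dendrites. Synm, which encodes synemin, had the highest value of the 18 genes, 319.9 CPM in a dendrite library, and reached 10 counts in 1 soma and 5 dendrite libraries.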

How the data were processed

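Raw whole-number counts per gene symbol were deposited by the authors, 1 table per library, with 92 ERCC spike-in rows that stayed out of library sizes. Per the labels' protocols, polyadenylated RNA was amplified in 3 rounds and sequenced as stranded, 75-base paired-end libraries, with no molecular identifiers named, so amplified reads are not independent molecules. The submitters' processing notes name build rn6. Aligner, annotation, strand handling and the treatment of reads matching several genes: not given in the sources used here. Collection spanned several cultures and days per the labels, with no record of which neuron came from which, so batches could not be examined and p-values measure the spread between these neurons. Transcript lengths were not used here, so CPM values set beside each other for different genes, and sums over genes, are not corrected for length.

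Counts were fitted in R 4.3.3 with edgeR 4.0.16: filterByExpr by compartment (minimum count 10; 4916 genes), TMM, glmQLFit (robust) and glmQLFTest with the neuron as a block, Benjamini-Hochberg adjustment over all genes and a threshold of 0.05. SEs were derived from the F statistic as |log2 fold change| / sqrt(F). Log2 CPM used a prior count of 2, ratios the raw counts. The series text gives each number 1 soma and 1 dendrite sample of a cell. Same-neuron profiles centred within compartments correlated at 0.068 on average and at over 0.1 in 4 of 16 neurons, against -0.00054 between neurons. No 2 libraries of a compartment agreed within sampling noise (smallest chi-square per degree of freedom 61.0). Alternatives used DESeq2 1.42.0, limma 3.58.1, other scalings, filters and prior counts, thinned counts, and fewer neurons. The partial rank correlation was added after seeing the data. Correlations carry no p.

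Members and gene lists were chosen with earlier results of these data known. Named genes are the members, the 3 genes of each list with the smallest p, other filament genes with 10 counts in at least 8 libraries, and the 5 most alike genes of each member with 10 counts in at least 12 libraries of a compartment. Of the list genes this rule names, 3 are not reported here. Single neurons described in the text, and Nes, Gfap and Synm among the other filament genes, were picked after their values were seen.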

Additional observations from a re-analysis of the deposited data

How the results depend on the processing

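The block is the neuron. With no replicate block, the log2 fold changes were 0.022 for Nefl, -0.20 for Nefm and -0.38 for Prph, each opposite in sign to the paired value, and Ina stayed negative. With limma-voom Nefl turned to 0.76, and without neurons 7, 8 and 9 Nefm turned to -0.39. No member passed under any alternative. The count of 0 called genes became 403 with the DESeq2 Wald test (8.2% of those tested, 0 of them members) and 1 with no filter on low counts, and was 0 whichever neuron was omitted, with limma-voom and with the exact sign-flip test. Leaving out 1 neuron at a time moved Nefl between -0.36 and 0.23, Nefm between -0.14 and 0.61, Ina between -0.67 and -0.26, and Prph between 1.71 and 2.94. Nefl turned positive without neuron 15, 21, 23, 25, 27 or 28, Nefm negative without 7, 11 or 20, the ratio of Ina to Nefl negative without 21 and that of Ina to Nefm positive without 11. It moved the ratio of Nefm to Nefl between 0.25 and 1.14, that of Ina to Nefl between -0.44 and 0.73, and that of Ina to Nefm between -1.01 and 0.25. With a minimum of 50 counts, the Ina to Nefm difference turned to 0.25 and Nefm to Nefl became 0.32. With no minimum and 1 count added, the ratios of Nefm to Nefl, Ina to Nefl and Ina to Nefm differed by 1.00, 0.027 and -0.97. With a minimum of 5, Nefm to Nefl became 1.96 (exact permutation, adjusted p = 0.320), Ina to Nefl 1.02 (adjusted 0.406) and Ina to Nefm -1.42 (adjusted 0.399). Over all genes the median log2 fold change was -0.070 with no replicate block and 0.13 with it. Prph did not pass the stricter filter. The correlations of Nefl with Nefm, and of Ina between compartments, moved by less than 1 / sqrt(n - 3) under every alternative run. Those of Nefl and Prph in soma became -0.68 without neurons 20 and 25. Without neurons 7, 8 and 9, Nefm and Prph in soma became -0.72 and Nefm and Ina in dendrites -0.26. Ina and Prph became -0.44 in soma and 0.55 in dendrites without the 2 neurons farthest from the median Ina level. At a fixed number of detected genes, Nefl and Ina in dendrites became -0.079 and Nefm and Ina -0.20. Why these values changed was not tested. Neuron 25 had the lowest depth, and a 0 there excludes little.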
